A study of Cervus nippon with 12 samples.

Results

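Of the 545 miRNA names deposited for cultured sika deer antler cells, 7 belong to blood lineages and are described here. They are bta-miR-451, bta-miR-486 and bta-miR-144 (red cells) and bta-miR-142-5p, bta-miR-142-3p, bta-miR-223 and bta-miR-150 (white cells). They were chosen by name, as every entry with one of these numbers and any arm or letter, after the values of miR-451 in these same libraries had been seen. Their levels are therefore a description, and nothing is supported with the calls among them. The prefix bta- marks a cattle miRNA name given to deer reads.

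Red blood cell precursors make miR-144 and miR-451 from one shared primary transcript, and miR-451 is matured by Argonaute 2 without Dicer, while miR-486 is made from an intron of the ankyrin gene ANK1 and is among the most abundant miRNAs of red cells and also occurs in muscle. miR-142 is found in almost all blood cell types and yields abundant mature miRNAs from both arms of its hairpin. miR-223 is typical of neutrophils and other myeloid cells, and miR-150 of mature lymphocytes. All are used as markers of blood cells in tissue samples.

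Small RNA was sequenced from 12 libraries of WT antler cells, with 3 in each of 4 groups. CP_0, CP_7 and CP_14 were reserve mesenchyme cells (RMCs), the progenitors at the growing antler tip, kept in DMEM with 10% fetal bovine serum and then pelleted at 500000 cells per tube in chondrogenic medium for 0, 7 or 14 days. CC were antler chondrocytes. The antlers came from male sika deer 3 years old, and the sources used here do not say which deer stood behind which library. No step to remove blood cells is described in the sources used here. The methods do describe antibody staining of RMCs for surface markers that include CD34 and CD45, of which CD45 is carried by white cells, and no value of it is used here. Total reads on all listed miRNAs were 2973442, 4097304 and 3636580 in CP_0, 769655, 1032029 and 539455 in CP_7, 2791559, 3024668 and 3864900 in CP_14, and 10256572, 9714090 and 9970138 in CC. Levels are given as recovered reads and as RPM, which scales the reads of every library to a sum of 1000000 over all listed names.

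One library stood apart from its group in these miRNAs, and this bears on each result with CP_0. Among 173 names with 50 reads or more in a CP_0 library, 3 were at least 10-fold higher in CP_0 replicate 3 than in both other libraries, and 2 of the 3 were miR-451 and miR-486 (the other was miR-206). No name was 10-fold lower there. With a wider rule of 4-fold and 10 reads, chosen after seeing the data, 8 of 258 names were higher in CP_0 replicate 3 and 1 was lower (miR-96). The higher names then also included miR-142-5p, miR-223, miR-182, miR-34c and miR-363. Under this rule miR-150 was lower in CP_0 replicate 2, with 0 reads against 3 and 12. Most other names did not differ in this way, since 91.1% of the 258 lay within 2-fold of the mean of replicates 1 and 2. Results with CP_0 are therefore given with and without replicate 3. In CP_7, replicate 1 was at least 10-fold above its group for 3 names, miR-206, miR-370 and miR-9-5p, none of them a blood-lineage miRNA. The wider rule set 11 names apart there, 10 higher and 1 lower, and the lower one was miR-142-5p, with 0 reads against 14 and 6. It set 4 names apart in CP_7 replicate 2 and 7 in CP_7 replicate 3, none of them a blood-lineage miRNA. CP_0 replicate 3 was thus not the only library with names apart, but no other library had a blood-lineage miRNA above its group under either rule.

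**Figure D1:**
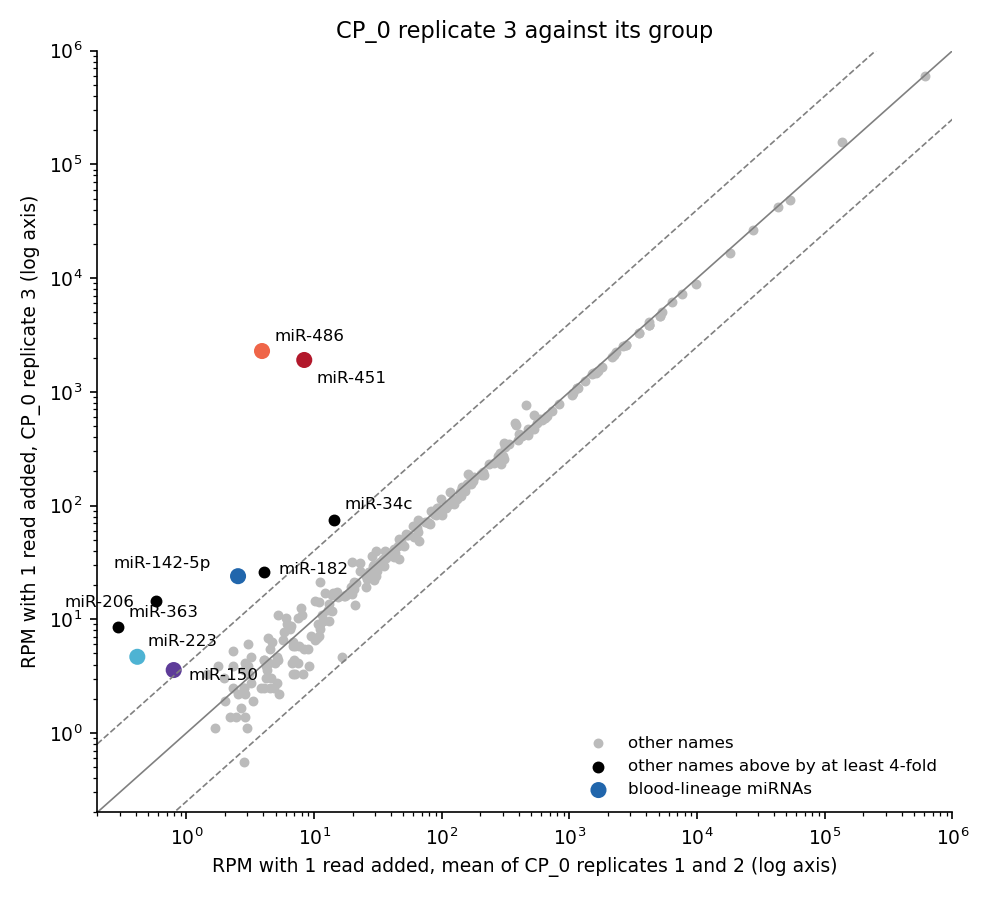
Level in CP_0 replicate 3 against the mean level in CP_0 replicates 1 and 2 for the 258 names with 10 reads or more in a CP_0 library, both as RPM with 1 read added on log axes; the solid line marks equal levels and the dashed lines 4-fold. miR-486 and miR-451 lie far above the line at 2286 and 1906 RPM in replicate 3, while 91.1% of the names lie within 2-fold.

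miR-451 was read 27, 29 and 6933 times in CP_0, 8, 17 and 2 in CP_7, 6431, 6039 and 6109 in CP_14, and 6619, 6293 and 6119 in CC. As RPM these were 9.08, 7.08 and 1906 in CP_0, 10.4, 16.5 and 3.71 in CP_7, 2304, 1997 and 1581 in CP_14, and 645, 648 and 614 in CC. Every CP_14 library was above every CC library in RPM, and every CC library above every CP_7 library. CP_0 replicate 3 lay inside the range of CP_14, and the other CP_0 libraries lay inside the range of CP_7. The mean level was 1960 ± 363 RPM (SD, n = 3) in CP_14, 636 ± 19.0 in CC and 10.2 ± 6.38 in CP_7. In CP_0 it was 641 ± 1096 with all 3 libraries and 8.08 without replicate 3, so CP_0 and CC cannot be ordered when all libraries are kept. CP_14 was 3.06 times CP_0 by mean RPM with all libraries and 243 times without replicate 3.

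miR-486 had 7, 20 and 8312 reads in CP_0, 9, 133 and 23 in CP_7, 7992, 7615 and 7363 in CP_14, and 8345, 7885 and 7706 in CC. Its RPM values were 2.35, 4.88 and 2286 in CP_0, 11.7, 129 and 42.6 in CP_7, 2863, 2518 and 1905 in CP_14, and 814, 812 and 773 in CC. As for miR-451, CP_14 was above CC and CC above CP_7 in every library, and the same library of CP_0 was at the level of CP_14. The group means were 2429 ± 485 RPM in CP_14, 799 ± 23.0 in CC, 764 ± 1318 in CP_0 and 61.1 ± 60.7 in CP_7 (SD, n = 3), and the CP_0 mean was 3.62 without replicate 3.

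At day 7 the red-cell miRNAs differed in RPM. miR-486 was higher in RPM in every CP_7 library than in CP_0 replicates 1 and 2, but in TMM-normalized RPM the lowest CP_7 library was only at 5.91 against 5.77 in CP_0 replicate 2, in reads it was lower (9 against 20), and limma did not call the difference without CP_0 replicate 3. The pooled reads gave a ratio of 18.5 to CP_0 without replicate 3 (95% interval 12.2 to 28.9). For miR-451 the same ratio was 1.46 (0.884 to 2.34). Totals were also scaled by TMM composition factors computed once over all 12 libraries, an alternative chosen after seeing the data. Each fit computed its own factors from the libraries and names in it. With the factors over 12 libraries the ratios were 8.67 (5.75 to 13.6) and 0.684 (0.415 to 1.10), so miR-451 is given no direction here. These intervals, like all those on reads here, are exact. They allow for counting error alone, because reads lacking molecular identifiers do not stand for separate molecules. Of the 165 reads of miR-486 in CP_7, 133 came from replicate 2, and without it the ratio was 6.40 (3.72 to 11.1), or 2.78 (1.62 to 4.83) with TMM factors, so the size of this difference rests mainly on that library.

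Within a library, the 2 red-cell miRNAs were in a similar proportion wherever both were abundant. There were 1.2 reads of miR-486 per read of miR-451 in CP_0 replicate 3, 1.24, 1.26 and 1.21 in CP_14, and 1.26, 1.25 and 1.26 in CC. Whether these differ was not tested. Elsewhere the reads were few. The proportion was 0.69 (0.370 to 1.26) in CP_0 replicate 2 and 1.12 (0.385 to 3.35) in CP_7 replicate 1, which cannot be told from 1.2 at this depth, but it ran from 0.259 (0.0953 to 0.61) in CP_0 replicate 1 to 7.82 (4.71 to 13.8) in CP_7 replicate 2 and 11.5 (2.84 to 101) in CP_7 replicate 3. The last 3 intervals do not hold 1.2, so the proportion was not the same in all libraries.

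miR-144, which shares its transcript with miR-451, did not follow it. It had 1 read in each of CP_0 replicates 1 and 2, 2 reads in CC replicate 2 and 0 in the other 9 libraries, 4 reads in all against 44626 of miR-451. In CP_0 replicate 3 it had 0 reads beside 6933 of miR-451, and in the CP_14 libraries 0 beside 6039 to 6431. A count of 0 allows up to 0.825 RPM in CP_0 replicate 3 and up to 1.07, 0.992 and 0.776 RPM in CP_14 (3 reads). A defining red-cell miRNA was thus at or near 0 in the libraries with the most miR-451, and no fold change is given for it.

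Among the white-cell miRNAs, miR-142-5p was the most abundant, with a mean of 10.8 RPM over the 12 libraries. It had 9, 6 and 86 reads in CP_0, 0, 14 and 6 in CP_7, 65, 68 and 59 in CP_14, and 56, 50 and 48 in CC, which came to 3.03, 1.46 and 23.6 RPM, 0, 13.6 and 11.1 RPM, 23.3, 22.5 and 15.3 RPM, and 5.46, 5.15 and 4.81 RPM. CP_14 was above CC and CP_7 in every library, and CP_0 replicate 3 again stood with CP_14. Here the distance was far smaller than for the red-cell pair. The mean was 20.3 ± 4.42 RPM in CP_14, 5.14 ± 0.323 in CC, 8.23 ± 7.23 in CP_7 and 9.38 ± 12.4 in CP_0 (SD, n = 3), with CP_0 at 2.25 without replicate 3. CP_7 and CC overlapped, and 2 of the 3 CP_7 libraries were higher than each CC library, which was not so for miR-451 or miR-486. The order of CP_7 and CC depended on the scaling, since with TMM factors miR-142-5p was at 0, 8.05 and 5.32 RPM in CP_7 and at 9.76, 8.60 and 7.40 in CC.

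The opposite arm of the same hairpin, miR-142-3p, had 13 reads in all against 467 for miR-142-5p. It had 4, 2 and 0 reads in CP_0, 1 in each CP_7 library, 0, 1 and 0 in CP_14, and 0, 1 and 2 in CC. CP_0 replicate 3, with 86 reads of the 5p arm, had none of the 3p arm, which allows up to 0.825 RPM there. Pooled over each group, the RPM of miR-142-3p in CC was 0.179 times that in CP_0 (0.0289 to 0.837) and 0.0782 times that in CP_7 (0.0105 to 0.584). With TMM factors these ratios were 0.259 (0.0419 to 1.21) and 0.243 (0.0326 to 1.82), so a difference was not detectable on that scale. Without CP_0 replicate 3 the ratio to CP_0 was 0.118 (0.0191 to 0.553), or 0.173 (0.0279 to 0.808) with TMM factors. The pooled ratio of CP_14 to CP_7 was 0.0806 (0.00154 to 1.004) for the 3p arm and 2.32 (1.46 to 3.89) for the 5p arm. With TMM factors these were 0.153 (0.00291 to 1.91) and 4.41 (2.77 to 7.38). The 3p ratio rested on 1 read against 3, and a fall of that arm was not detectable. On either scale the intervals of the 2 arms did not overlap. The 2 arms thus did not share one pattern at this depth.

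miR-223 had 0, 1 and 16 reads in CP_0, 0 in each CP_7 library, 10, 19 and 13 in CP_14, and 19, 10 and 14 in CC. Its levels were at most 4.40 RPM in CP_0, 3.58, 6.28 and 3.36 RPM in CP_14, and 1.85, 1.03 and 1.40 RPM in CC. CP_0 replicate 3 was again at the level of CP_14, and CP_14 did not overlap with CC. Pooled over 3 libraries, CP_14 was at least 3.39-fold higher than CP_7 with CP_7 set at 3 reads in the group, and the lower limit of the 95% interval, which also allows for the counting error of CP_14, was 2.63. A CC level could not be told from 0 in any one CP_7 library, since 0 reads there allow 3.90, 2.91 and 5.56 RPM. Pooled, CC was at least 1.12-fold higher than CP_7 with CP_7 set at 3 reads, and the lower limit of the 95% interval was 0.873, or 2.72 with TMM factors.

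miR-150 had 3, 0 and 12 reads in CP_0, 0, 3 and 0 in CP_7, 18, 19 and 13 in CP_14, and 15, 17 and 10 in CC. In RPM it reached 6.45, 6.28 and 3.36 in CP_14, 1.46, 1.75 and 1.0 in CC, 1.01, 0 and 3.30 in CP_0 and 0, 2.91 and 0 in CP_7. Every CP_14 library was above every CC library and above CP_7 replicate 2. The 0 reads in CP_7 replicates 1 and 3 allow 3.90 and 5.56 RPM, so CP_14 replicate 3 cannot be ordered against them. CP_0 replicate 3 was just under the lowest CP_14 library in RPM, and with TMM-normalized RPM it was above it (3.85 against 3.60). The pooled ratio of CP_14 to CP_7 rested on 3 reads in CP_7 and was 4.03 (1.30 to 20.2). CC and CP_7 overlapped, with a pooled ratio of 1.09 (0.350 to 5.52). With TMM factors these ratios were 7.65 (2.47 to 38.3) and 3.41 (1.09 to 17.2), so whether the pooled level of CC was above that of CP_7 depended on the scaling here too.

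**Figure D2:**
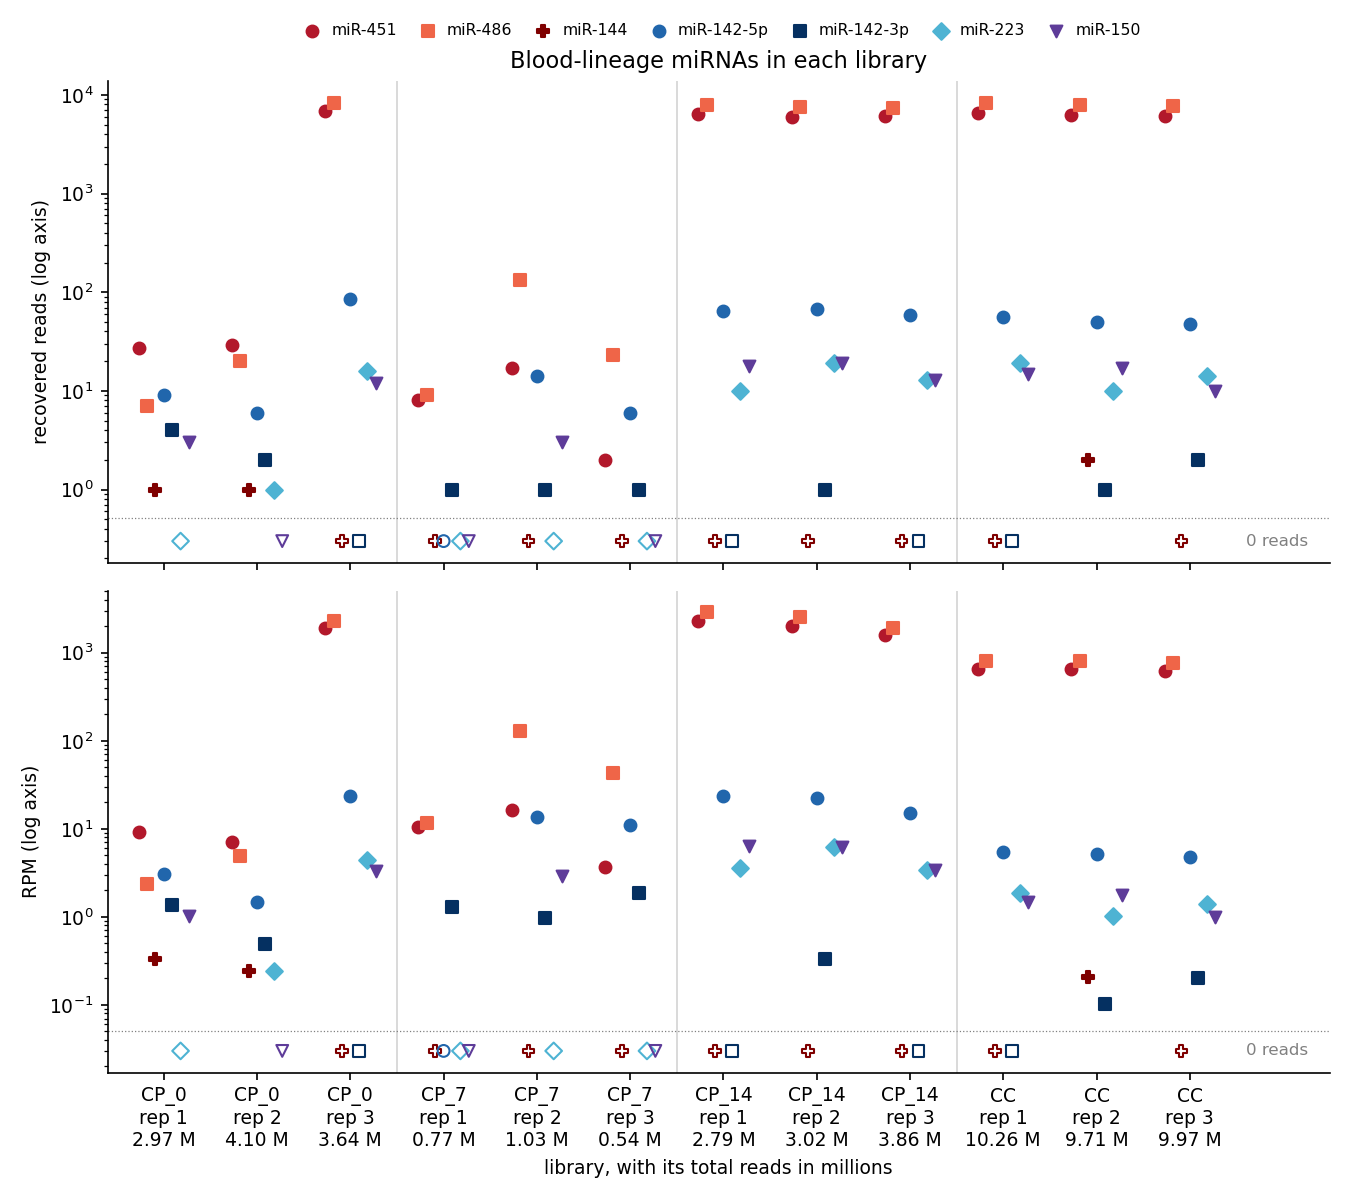
Recovered reads (upper panel) and RPM (lower panel) of the 7 blood-lineage miRNAs in each of the 12 libraries on log axes, 1 filled point per miRNA and library, with open points under the dotted line for 0 reads. miR-451 stands at 6039 to 6933 reads in CP_0 replicate 3, CP_14 and CC and at 2 to 29 reads elsewhere, while miR-144 and miR-142-3p stay at or under 4 reads.

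The red-cell and white-cell miRNAs thus did not all share one pattern. Reads of 5 of the 7 were higher in CP_0 replicate 3, CP_14 and CC than in CP_7 and the other CP_0 libraries. These 5 were miR-451, miR-486, miR-142-5p, miR-223 and miR-150, and include members of both lineages. In reads the same order was also met by names outside the set, such as miR-92a, miR-191, miR-34c and miR-200a. CP_7 had the fewest total reads, and the share of all names with this order was not counted. In RPM the order held for miR-451 and miR-486. For miR-223 it could not be told library by library, since 0 reads in a CP_7 library allow levels above those of CC. The order did not hold for miR-142-5p in RPM, at 13.6 and 11.1 in CP_7 replicates 2 and 3 against 4.81 to 5.46 in CC. The 11.1 RPM rested on 6 reads (95% interval 4.08 to 24.2). With TMM factors CP_7 was at 0, 8.05 and 5.32 RPM and CC at 7.40 to 9.76, so the groups overlapped. The pooled ratio of CC to CP_7 was 0.602 (0.377 to 1.01) in RPM and 1.87 (1.17 to 3.15) with TMM factors. For miR-150 the order could not be told either. In CP_7 replicate 2 miR-150 was at 2.91 RPM on 3 reads, against at most 1.75 in CC. The lower limit of its 95% interval there, 0.599 RPM, was under every CC level. With TMM factors miR-150 was at 1.73 RPM there, against 1.54 to 2.92 in CC. miR-144 and miR-142-3p, 1 of each lineage, were at or under 4 reads everywhere and did not show the pattern. The 5 also differed in size. CP_14 was 192 times CP_7 by mean RPM for miR-451, 39.8 times for miR-486, 5.54 times for miR-150 and 2.47 times for miR-142-5p. With TMM-normalized RPM these ratios were 351, 71.0, 9.30 and 4.57. Without CP_7 replicate 2, chosen after seeing the data, the ratio by mean RPM was 278 for miR-451, 89.4 for miR-486 and 3.66 for miR-142-5p, and for miR-150 no read was left in CP_7. For every 100 reads of miR-451 there were 1.24 of miR-142-5p in CP_0 replicate 3, 0.966 to 1.13 in CP_14 and 0.784 to 0.846 in CC, against 33.3 and 20.7 in the other CP_0 libraries and 0, 82.4 and 300 in CP_7, where the last rests on 2 reads of miR-451. All 7 together took 0.422% of the reads in CP_0 replicate 3, 0.351% to 0.52% in CP_14 and 0.139% to 0.147% in CC, of which miR-451 and miR-486 made up at least 99.2% in each of these libraries. In the other CP_0 libraries and in CP_7 the 7 took between 0.00144% and 0.0163%. In bulk RNA, fewer cells of a type and less RNA per cell cannot be told apart.

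The reads of these miRNAs differed less between CP_14 and CC than the depth did. The CC libraries were on average 3.09 times as deep as those of CP_14, yet CC held 1.02 times the mean reads of CP_14 for miR-451, 1.04 times for miR-486, 1.02 times for miR-223, 0.84 times for miR-150 and 0.802 times for miR-142-5p. By RPM the same ratios were 0.324, 0.329, 0.324, 0.262 and 0.253, so that the lower RPM in CC came with reads between 0.802 and 1.04 times those of CP_14. Among 159 names averaging at least 50 reads in both groups, the median ratio of reads was 2.16 and that of RPM 0.699.

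Over the 6 libraries of CP_14 and CC (this set was formed after seeing the data), the coefficient of variation (SD over mean) of the reads was 3.57% for miR-451, the lowest of the 159 names, and 4.33% for miR-486, which had rank 3. The median was 43.0%. For miR-142-5p, miR-150 and miR-223 the reads varied by 13.8%, 22.1% and 28.7%, at means low enough that counting error alone would give 13.2%, 25.5% and 26.6%. In RPM the same miRNAs varied by 66.7% to 72.1%, miR-451 by 58.6% and miR-486 by 58.5%, against a median of 26.7%. Only 5 of the 159 names varied by less than 10% in reads, and the other three were miR-200a (3.81%), miR-182 (6.21%) and miR-34c (9.42%). In CP_14 alone, where the depth ran from 2791559 to 3864900, the reads of miR-451 varied by 3.38% and its RPM by 18.5%. In CC, where the depths were close, these were 4.0% and 2.99%.

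The library of CP_0 that stood apart was close to these libraries in reads as well. CP_0 replicate 3 had 8312 reads of miR-486 and 16 of miR-223, inside the range of the CP_14 and CC libraries (7363 to 8345 and 10 to 19). Its 6933 reads of miR-451 were 4.74% above the highest of them and its 86 of miR-142-5p 26.5% above. The 4 other names that were 4-fold above their group in this library lay inside the range as well, with 94 reads of miR-182 (94 to 112), 273 of miR-34c (at most 295), 30 of miR-363 (21 to 40) and 52 of miR-206 (31 to 148). The part of depth, library preparation or cell source in these reads was not tested.

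**Figure D3:**
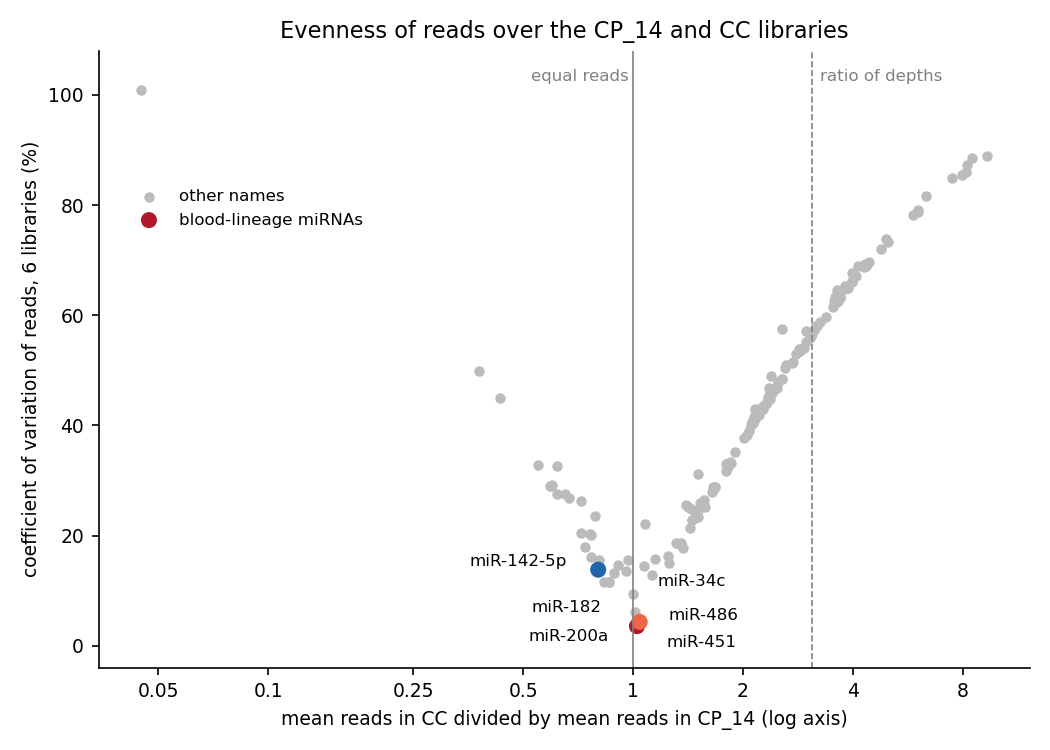
Coefficient of variation of the reads over the 6 libraries of CP_14 and CC against the ratio of mean reads between CC and CP_14 (log axis), 1 point for each of 159 names averaging at least 50 reads in both groups. miR-451 (3.57%) and miR-486 (4.33%) sit at the bottom at a ratio of 1.02 and 1.04, while the ratio of depths was 3.09 (dashed line).

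Each pair of groups was fitted across all names with limma on log2(TMM-normalized RPM + 1), and a name was called when its adjusted p (Benjamini-Hochberg) was under 0.05. For miRNAs with few reads, the added 1 RPM makes the fold changes smaller than they are. The contrasts that follow were in view when the miRNAs were chosen, so the count of calls is set beside the share of all names called, and nothing is read from it. Not all members passed the filter on low reads, and a miRNA that passed through its high group alone had to differ.

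From CP_7 to CP_14, 3 of the 7 miRNAs were tested and all 3 were called higher, where 28.9% of 246 names were called higher and 26% lower (54.9% in either direction). The log2 fold change was 8.52 ± 0.43 for miR-451, 6.79 ± 0.73 for miR-486 and 2.66 ± 0.86 for miR-142-5p (± SE). The last was not called with library size only (1.91), with no filter on low reads (2.59) or without any one CP_14 library (2.61 to 2.84). It was 1.61 without CP_7 replicate 1, where this miRNA had 0 reads, and 3.30 without CP_7 replicate 2. For miR-486 the same were 6.0 and 7.68.

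From CP_14 to CC, 5 were tested and all 5 were called lower, where 38% of 276 names were called lower and 36.6% higher (74.6% in either direction). The log2 fold changes were -1.16 ± 0.19 for miR-142-5p, -0.92 ± 0.10 for miR-451, -0.89 ± 0.11 for miR-486, -0.88 ± 0.26 for miR-150 and -0.65 ± 0.26 for miR-223 (± SE). When all 12 libraries entered 1 fit, 0 of the 5 were called by limma, also 0 at an unadjusted p under 0.05, while edgeR and DESeq2 on the reads of these 6 libraries each called 4. The log2 fold changes in the fit of 12 libraries were of like size, from -1.16 for miR-142-5p to -0.68 for miR-223. Without CC replicate 3, 3 of 5 were called, the others being miR-150 (-0.70) and miR-223. The call of miR-223 was the least stable. It was also lost with edgeR, DESeq2, the replicate block, a pseudocount of 5 RPM and no filter on low reads, and without CC replicate 2 or CP_14 replicate 2 or 3, with a log2 fold change of -0.42 without CP_14 replicate 2.

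From CP_0 to CP_14, 0 of 5 miRNAs tested were called by limma (26.8% of 250 names higher, 19.6% lower, 46.4% in either direction). At an unadjusted p under 0.05 there were 3 of 5, with 0 by edgeR and 1 by DESeq2. The log2 fold changes were 5.94 ± 2.37 for miR-486, 5.04 ± 2.03 for miR-451, 1.63 ± 0.83 for miR-142-5p, 1.51 ± 0.57 for miR-150 and 1.38 ± 0.68 for miR-223 (± SE). Without CP_0 replicate 3, 5 of 5 were called higher, with log2 fold changes of 8.95, 7.62, 2.63, 2.08 and 2.17 in the same order. In that fit 74 of 254 names were called higher and 51 lower. CP_0 replicate 3 was singled out by the values of miRNAs in this same set, so nothing is read from the count. The size also moved with the tool, since edgeR and DESeq2 gave 1.46 and 1.43 for miR-486, 1.41 and 1.37 for miR-451, and 0.93 and 0.89 for miR-142-5p with all 6 libraries. With CP_0 replicate 3 kept, the count of calls also moved with the fit, to 3 with all 12 libraries in 1 fit and to 1 with library size only.

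From CP_0 to CP_7, 0 of 3 miRNAs tested were called by limma, also 0 at an unadjusted p under 0.05, with miR-451 called lower by edgeR and miR-451 and miR-486 by DESeq2 (34.1% of 246 names higher, 29.3% lower, 63.4% in either direction). The log2 fold changes were -3.47 ± 2.05 for miR-451, -0.95 ± 1.20 for miR-142-5p and -0.81 ± 2.47 for miR-486 (± SE). Without CP_0 replicate 3 they were -0.90, 0.06 and 2.23, and 0 of 3 were called by limma. On the reads, edgeR and DESeq2 gave -7.03 and -7.14 for miR-451 and -4.77 and -4.82 for miR-486 with all 6 libraries. For miR-486 the direction turned when CP_0 replicate 3 was left out, and also with library size only (0.22). For miR-142-5p it turned without that library and without CP_7 replicate 1 (0.07). Neither is given a direction from these fits.

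The scaling moved the level of all names. With library size only, the median log2 fold change over all names tested was 1.12 from CP_0 to CP_7, -0.84 from CP_7 to CP_14 and -0.54 from CP_14 to CC, against 0.02, 0.08 and 0.07 with TMM. The calls then split into 152 higher and 20 lower, 26 and 138, and 40 and 163, in place of 84 and 72, 71 and 64, and 101 and 105. From CP_0 to CP_14 they were 76 and 33 in place of 67 and 49, with a median of 0.16 in place of 0.04. With upper-quartile factors the calls from CP_7 to CP_14 were 48 higher and 79 lower, with a median of -0.17, and the median from CP_0 to CP_7 was 0.15. The log2 fold changes of the members from CP_7 to CP_14 and from CP_14 to CC kept their sign under each of these scalings, at 7.63 and -1.61 for miR-451 with library size only.

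Of the other miRNAs that are abundant in red cells but broadly expressed, miR-363 and miR-182 had their high reads in the same libraries as miR-451, although in RPM miR-182 did not, while the summed level of the list did not follow it. The list held 12 names (miR-15, miR-16, miR-25, miR-92, miR-96, miR-182, miR-183, miR-185 and miR-363 with their variants). Its summed level was 1787, 1641 and 2142 RPM in CP_0, 2978, 2782 and 3068 in CP_7, 2184, 1994 and 1816 in CP_14, and 1465, 1513 and 1643 in CC, so CP_0 replicate 3 was above the rest of its group by far less than for the red-cell list (11.8, 12.2 and 4192 RPM in CP_0). In RPM this sum was highest in CP_7. Scaled by TMM factors (1.68 to 2.09 in CP_7, 0.559 to 0.650 in CC) it was lowest in CP_7 and higher in CC than in CP_14. The order of groups thus depended on the scaling, and on neither scale was it that of miR-451. The most abundant name of the list, miR-92a, had 1464, 1708 and 2759 reads in CP_0, and 4 of 11 names tested were called higher and 4 lower from CP_14 to CC (36.6% and 38% of all names). From CP_7 to CP_14, 6 of 10 were called higher and 1 lower, where 28.9% and 26% of all names were, with a median log2 fold change of 0.39 beside 0.08 over all names. miR-363 and miR-182 were called higher from CP_7 to CP_14 (log2 fold changes 3.53 and 2.22) and lower from CP_14 to CC (-0.96 and -0.88), as was miR-451. miR-363 had 0, 0 and 30 reads in CP_0, 0, 1 and 0 in CP_7, 21, 40 and 30 in CP_14, and 28, 21 and 28 in CC. miR-182 had 13, 13 and 94 reads in CP_0, 7, 4 and 24 in CP_7, 112, 94 and 100 in CP_14, and 99, 104 and 107 in CC. Its 24 reads in CP_7 replicate 3 were 44.5 RPM, the highest of the 12 libraries (25.9 to 40.1 in CP_14), where miR-451 had 2 reads.

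Markers of other cell types were followed in the same way, library by library. The mesenchyme list (7 names, led by miR-143) summed to 141376, 148844 and 166747 RPM in CP_0 and the cartilage list (3 names, led by miR-140) to 10582, 9375 and 9043, so the library with high miR-451 was near its group for the miRNAs of the cultured cells themselves. In CP_14 the mesenchyme list was at 215622 to 289772 RPM, with 116226 to 147734 for CP_7 and 42350 to 58045 for CC. Like miR-451, this sum was higher in CP_14 than in CP_7 and CC and highest of CP_0 in replicate 3. In RPM it was lower in CC than in CP_7. Scaled by TMM factors (1.68 to 2.09 in CP_7, 0.559 to 0.650 in CC) it was higher in CC. On either scale CP_0 replicates 1 and 2 were above CC. Most of the sum was miR-143, and the other names did not all follow it. From CP_7 to CP_14, 2 of 7 names were called higher and 4 lower (28.9% and 26% of all names), with a median log2 fold change of -0.59 beside 0.08. The cartilage list was at 9043 to 11415 RPM in all 12 libraries. Scaled by the same TMM factors it was lowest in CP_7 and highest in CC, so it was even in RPM alone. Most of this sum was miR-140, and the other 2 names were less even in RPM. From CP_0 to CP_7, miR-455-5p went from 185 to 220 RPM to 480 to 514, and miR-455-3p from 20.9 to 26.1 RPM to 133 to 140.5. In the fits of these groups miR-140 was called lower (-1.08) and miR-455-3p higher (1.37), where 29.3% and 34.1% of all names were. The rise of miR-455-5p in RPM was not called there (log2 fold change 0.19). The endothelium and platelet list (2 names, led by miR-126-3p) was at 63.6, 47.1 and 58.6 RPM in CP_0, at 188, 323 and 3083 in CP_7, and at 28.4 to 83.6 in CP_14 and CC. It was thus highest in CP_7 replicate 3, a library with 2 reads of miR-451. miR-122, a liver miRNA also found in serum, was at 21.9, 19.5 and 13.2 RPM in CP_0, 58.5, 53.3 and 79.7 in CP_7, 30.8, 24.8 and 23.0 in CP_14, and 5.36, 3.09 and 5.82 in CC, and was not raised in CP_0 replicate 3. None of these 4 had the full order of libraries seen for miR-451 in RPM.

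The immune activation list (4 names, led by miR-155) was highest in CP_7, at 4360 to 6231 RPM, with 605 to 693 in CP_0, 1020 to 1432 in CP_14 and 521 to 581 in CC. Most of this was miR-155. miR-147 of the same list was highest in CP_14, at 109 to 146 RPM against 53.3 to 106 in CP_7, and was called higher from CP_7 to CP_14 (1.78) and lower from CP_14 to CC (-2.32), but it was at 5.61 to 9.90 RPM in CP_0 with replicate 3 near its group. The muscle list (8 names, led by miR-1) was also highest in CP_7, at 4584 to 6697 RPM, with 1688 to 1761 in CP_14 and at most 755 elsewhere, and the neuron list (5 names, led by miR-9-5p) reached 3524 RPM in CP_7 replicate 1 and was at most 373 elsewhere. The epithelium list (6 names, led by miR-200a) was lowest in CP_7 replicates 1 and 2, with 3.90, 6.78 and 16.7 RPM in CP_7, 35.0, 27.3 and 41.0 in CP_0, 46.2, 43.3 and 35.4 in CP_14, and 15.5, 12.6 and 12.8 in CC. Its names went different ways in CP_0 replicate 3. miR-200a had 35, 41 and 77 reads in CP_0, with 74 to 82 in CP_14 and CC, and miR-429 had 0, 0 and 8, with 5 to 9 in CP_14 and CC and 0 in CP_7. miR-200c had 25, 38 and 13 and miR-141 6, 6 and 2. From CP_7 to CP_14, 28.9% of all names were called higher and 26% lower. Of the epithelium names 2 of 2 tested were called higher, miR-200a (4.45) and miR-200b (3.04), as was miR-451. In CP_7, miR-200a had 0, 1 and 1 reads. For muscle 3 of 5 and for neurons 1 of 3 were called lower, with 0 higher. Cartilage and immune activation had 1 of 3 in each direction, and neither miR-126-3p nor miR-122 was called. Between CP_14 and CC, where 38% of all names were called lower and 36.6% higher, 3 of 5 epithelium names tested were called lower, 2 of 3 neuron names, 4 of 6 muscle names and 4 of 7 mesenchyme names. In the last 2 lists 1 name each was called higher, miR-133c and miR-199a-5p, and 2 of 3 cartilage names were called higher. For immune activation 1 of 3 was called in each direction, and 1 of 2 endothelium names and miR-122 were called lower. Every name of these lists had at least 1 read in a library, and their part in the levels of the blood-lineage miRNAs was not tested.

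Outside the 7 blood-lineage miRNAs, the names most like miR-451 over the 12 libraries, by Pearson's r of log2(TMM-normalized RPM + 1) among 310 names with 10 reads or more in a library, were miR-363 (r = 0.97), miR-191 (0.943), miR-34c (0.899), miR-652 (0.842) and miR-214 (0.833). Within the set, r with miR-451 was 0.959 for miR-223, 0.951 for miR-486, 0.885 for miR-150 and 0.791 for miR-142-5p, and the median over all other names was 0.0431. The 12 points share 4 groups and their depths, and a coefficient over them reflects mostly which libraries stood high, so it is a description with n = 12. Of the 5 names, miR-363 and miR-34c had reads in CP_0 replicate 3 at the level of CP_14 and CC. miR-191 (1074, 1566 and 1918 reads in CP_0) and miR-214 (589, 635 and 593) did not set that library apart to a like degree.

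Outside the set, the names most like miR-142-5p were miR-194b-3p (r = 0.879), miR-363 (0.858), miR-182 (0.756), miR-194b (0.731) and miR-200a (0.678), over the same 12 libraries. miR-363 was among the 5 for both miRNAs on this scale, and with log2 reads in place of RPM both miR-363 and miR-182 were (r of miR-182 0.911 with miR-451 and 0.842 with miR-142-5p). On log2 reads the median r over all other names was itself 0.62 with miR-451 and 0.514 with miR-142-5p. Without CP_0 replicate 3 (n = 11), miR-363 stayed closest to miR-451 (r = 0.967) and was next to miR-194b-3p (0.972) for miR-142-5p, at 0.838. Within the set, r with miR-142-5p was 0.885 for miR-150, 0.86 for miR-486, 0.813 for miR-223 and 0.791 for miR-451, and the points are too few and too dependent to rank them.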

How the data were processed

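For each library the authors deposited RPM values of 545 names (475 bta-, 70 novel_), under a header reading TPM. Each library sums to 1000000, without division by length. Per the submitters' processing notes, CASAVA, bcl2fastq 1.8.4 and Bowtie were used; the sources used here do not give the trimming, the counter or the miRNA database version. The NEBNext Multiplex kit was used for library preparation. Dividing by the value of 1 read gave whole reads for 100% of values (tolerance 0.01 read). No pair of libraries was a copy (chi-square per degree of freedom at least 4.92 within groups and 418 between groups).

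The members and the marker lists were chosen with earlier results of these data known. Named miRNAs were the members, the 5 most like miR-451, the 5 most like the most abundant white-cell name, and the leading name of each list; any other name was picked with its values in view. Tests used limma 3.58.1 with an intensity trend (two-sided) on log2(TMM-normalized RPM + 1), edgeR 4.0.16 filterByExpr (minimum count 10, minimum total 15) and R 4.3.3, on the 6 libraries of each of 4 comparisons. DESeq2 1.42.0, other scalings, pseudocounts of 0.5 and 5 RPM, no filter, 1 fit of 12 libraries, a replicate block and leaving out each library were alternatives. The procedure was tested on simulated data. The methods speak of biological replicates without naming the animal behind each library, so p-values measure the spread between these libraries, which may be technical. Mature sequences were not used here.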

Additional observations from a re-analysis of the deposited data

How the results depend on the processing

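The number of blood-lineage miRNAs called moved as follows. From CP_0 to CP_7 it was 0 with limma, 1 with edgeR and 2 with DESeq2, and 0 without each library in turn (minimum 0, maximum 0). From CP_7 to CP_14 it was 3 of 3, 5 of 5 with all 12 libraries in 1 fit, and between 2 and 5 when each library was left out, with 5 tested without any one CP_7 library. From CP_0 to CP_14 it was 0 of 5, 1 with library size only, 1 with DESeq2, 3 with 12 libraries in 1 fit, and between 0 and 5 when each library was left out, the 5 without CP_0 replicate 3. From CP_14 to CC it was 5 of 5, 0 with 12 libraries in 1 fit, and between 3 and 5 when each library was left out. Over all names, in the same order of comparisons, the fit of 12 libraries called 93, 96, 65 and 85 of 284 higher and 84, 75, 43 and 80 lower. Of 246, 246, 250 and 276 names, edgeR called 86, 68, 67 and 100 higher and 72, 67, 48 and 102 lower. Of the same names DESeq2 called 93, 66, 59 and 90 higher and 77, 78, 62 and 103 lower. Fewer or more names pass the filter with fewer libraries, and the cause of the other shifts was not tested. The ratio of mean miR-451 in CC to CP_14 was 0.324 in RPM, 0.539 in TMM-normalized RPM and 1.02 in reads, and for miR-486 0.329, 0.548 and 1.04. No pairing of libraries by replicate number was seen (r of deviations from -0.359 to 0.111). This cannot show whether libraries of the same number shared a deer. With the replicate block the calls were 0, 3, 0 and 4 in the same order of comparisons. Of the fold changes that limma called with all 6 libraries, none changed sign in the other fits. That of miR-486 from CP_0 to CP_7, called by DESeq2 (-4.82), was 0.22 with library size only and 2.23 without CP_0 replicate 3. For the 5 names most like miR-451, 3 were shared when log2 reads were used and 4 without CP_0 replicate 3. For miR-142-5p 3 were shared under either. With 3 libraries a group and at most 19 reads, miR-223 and miR-150 are limited by counting.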
